A study of Mus musculus with 27 samples.

Results

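The NMDA receptor subunit genes Grin1, Grin2a, Grin2b, Grin2c, Grin2d and Grin3a were followed in whole mouse retina from embryonic day 14 to postnatal day 60. They are 6 of the 38168 features listed in the expression table, each found by its symbol and each listed once. All 27 libraries came from wild type mice of the C57BL/6J strain and from no other genotype or treatment, with 3 libraries at E14, 3 at E17, 4 at P1, 3 at P6, 4 at P15, 4 at P28 and 6 at P60. The study's methods describe pools of embryos or of postnatal mice, whereas the labels give 3 retinas per library. At P60 the methods name single mice for 4 of the 6 libraries and pools for the others, without saying which. Embryonic and P1 samples were of mixed sex and the later ones were males, so that sex cannot be told apart from age across that boundary. Levels are given in CPM, the reads of a gene scaled to the total of its library, and the comparison asked of these genes was whether the make-up of the subunits switched over the 7 ages.

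In their usual form, with GluN1 and GluN2 subunits, NMDA receptors are glutamate-gated channels. These open only when glutamate and a co-agonist, glycine or D-serine, are bound and when depolarization relieves the block by magnesium. Each receptor is built around the obligatory GluN1 subunit (Grin1), which binds the co-agonist, together with GluN2 subunits (Grin2a to Grin2d), which bind glutamate and set the speed of closing and the strength of the magnesium block, or with GluN3 subunits such as GluN3A (Grin3a), which lower calcium entry. In many forebrain regions receptors rich in GluN2B are joined or replaced by receptors with GluN2A after birth, a change usually called the subunit switch. In retina, NMDA receptors are best known on ganglion cells and amacrine cells.

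The GluN2 genes are close relatives, so their transcripts on the GRCm38 build (GENCODE) were compared to see whether a read of 50 bases could be shared between members. No run of 50 bases was identical between transcripts of any pair of the 6 genes, on the same or on the opposite strand. In the coding sequences, the closest pair of 50-base windows, from Grin2b and Grin2c, differed at 2 bases, and windows of Grin1 and Grin3a differed from those of every other member at 11 bases or more. A 50-base read without mismatches therefore belongs to 1 of the 6 genes, while the mismatches allowed by the authors' alignment are not given in the sources used here.

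All 6 genes are annotated on the minus strand of GRCm38: Grin1 at chr2:25291181-25319187, Grin2a at chr16:9567898-9995560, Grin2b at chr6:135713233-136173511, Grin2c at chr11:115249169-115267243, Grin2d at chr7:45831883-45878378 and Grin3a at chr4:49661611-49845744. The genes differ widely in size, since the merged exons cover 24842 bases in Grin2b, 17933 in Grin2a, 12275 in Grin3a, 9700 in Grin1, 6658 in Grin2d and 5037 in Grin2c. Levels of different members are therefore compared only per kilobase, and a ratio of reads or CPM between members is read for its change with age. An antisense gene, Grin1os, overlaps exons of Grin1, and the coding gene Kdelr1 overlaps an exon of Grin2d from the opposite strand. Noncoding genes on the opposite strand also overlap exons of Grin2b (Gm14329, Gm22892 and Gm26653), Grin2c (Gm25837) and Grin2d (Gm45441). None of these noncoding genes is among the features listed. The sources used here do not state whether counting used the strand. Reads of Grin1 and Grin1os, or of Grin2d and Kdelr1, therefore cannot be told apart where they overlap. The same holds for Grin2b, Grin2c and Grin2d where the unlisted genes overlap them, and the size of any such share was not tested.

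Because all values came in steps of a single read, the total to which CPM was scaled could be read back. It lay between 7077781 and 11332323 reads (median 7969873). This total is not the number of reads sequenced, for which the study's methods give a higher value per library. In these libraries 1 read was worth 0.0882 to 0.141 CPM and the floor of 3 reads was at most 0.424 CPM, and the lowest value of any member was the 6 reads of Grin2c in P6 replicate 2. Among the P60 libraries, replicates 1 and 2 stood apart over the whole table: the chi-square of their recovered reads per degree of freedom was 3.29 between them, 13.4 to 21.5 against replicates 3 to 5 and 8.36 and 8.89 against replicate 6, beside 4.62 to 9.31 among replicates 3 to 6. For the members, the calls from P28 to P60 and between embryonic and mature retina were also made without each of these sets of libraries. Whether the sets match the pools and single mice of P60 was not tested, since the methods do not say which libraries were pools. The retinal label was borne out by the rod and progenitor lists. The summed level of 4 rod genes ran from 13.1 to 22.9 CPM in the embryonic libraries and from 22151 to 27244 CPM at P60. The sum of 4 progenitor genes ran from 3315 to 3739 CPM in the embryonic libraries and was at most 6.74 CPM at P60. In such whole tissue, fewer cells of a type and less RNA per cell cannot be told apart. The 6 ganglion cell genes summed to 836 to 901 CPM at E14 and 405 to 449 CPM at P60, and the 6 amacrine genes summed to 138 to 160 CPM at E14, where Chat was at 0 in all 3 libraries, to 840 to 958 CPM at P1 and to 388 to 428 CPM at P60. The ganglion cell sum did not fall steadily, with 351 to 398 CPM at P6 and 529 to 659 CPM at P15. Within that list Nefl (362 and 389 CPM) and Slc17a6 (49.2 and 64.1 CPM) had higher means at P15 than at E14. Rbpms, Pou4f1, Pou4f2 and Sncg had lower ones, and Nefl alone was at 299 CPM at P60. Within the amacrine list Tfap2a, Tfap2b and Gad2 had lower means at P60 than at P1 and Gad1, Slc32a1 and Chat higher ones, with Tfap2b at 548 and 182 CPM and Gad1 at 37.8 and 102 CPM. The part of these changes in the results below was not tested.

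Between embryonic retina (the mean of E14 and E17, 6 libraries) and mature retina (the mean of P15, P28 and P60, 14 libraries), 5 of the 6 genes rose and Grin2c fell. The fall of Grin2c was one from E14, where its mean was 12.3 CPM. Its means at P15, P28 and P60, at 5.03, 4.14 and 4.47 CPM, all lay above the 3.74 CPM of E17. Change was called at an adjusted p under 0.05 in limma, fitted to log2(CPM + 1) over all 31760 features tested with Benjamini-Hochberg adjustment. By this rule 75.4% of all features were called, 35% higher and 40.4% lower, so that being called is near the background, while a rise in 5 of 6 stands beside the background of 35%. The median log2 fold change was 2.24 over the 6 genes and -0.065 over all features tested. Libraries of the 2 groups did not overlap for Grin1, Grin2a, Grin2b and Grin2d, against 40.4% of all features that did not overlap in either direction and 17.4% that did not overlap and were higher. Over the 7 ages all 6 genes were called by the F test, as were 83% of all features.

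Grin1, which encodes the subunit present in every NMDA receptor, rose at each step up to P15. Its level was 4.40, 3.59 and 3.47 CPM in the E14 libraries, 8.08, 10.5 and 11.3 CPM at E17, and 16.4, 20.04, 17.1 and 21.6 CPM at P1. It was 36.0, 33.4 and 34.1 CPM at P6, 73.7, 72.3, 71.4 and 87.0 CPM at P15, 72.5, 73.4, 73.7 and 78.2 CPM at P28, and 62.1 CPM at the lowest, 101 CPM at the median and 107 CPM at the highest at P60. No library of an age up to P15 overlapped those of the age before, whereas P28 lay within the range of P15. The P60 libraries fell apart into replicates 1 and 2, at 71.6 and 62.1 CPM, which lay below all P28 libraries, and replicates 3 to 6, at 97.1 to 107 CPM, which lay above them. The mean rose from 3.82 ± 0.51 CPM at E14 (SD, n = 3) to 91.5 ± 19.6 CPM at P60 (SD, n = 6), and the log2 fold change of mature against embryonic retina was 3.48 (SE 0.096, limma adjusted p = 5.23e-25).

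The antisense gene Grin1os followed Grin1 more closely than any other gene compared, with a Pearson r of 0.99 over the 27 libraries, a description for which no p is given because the libraries share their ages. Its level was 1.04 ± 0.23 CPM at E14 (SD, n = 3) and 33.7 ± 8.42 CPM at P60 (SD, n = 6). How far the values of either gene hold reads of the other was not tested.

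Grin2b, which encodes the GluN2 subunit typical of young forebrain, had the largest rise at the first step. It was at 7.30, 4.01 and 6.21 CPM in the E14 libraries, 41.0, 47.0 and 47.7 CPM at E17, and 104, 63.9, 100 and 114 CPM at P1. It then stood at 163, 170 and 156 CPM at P6 and at 161, 161, 158 and 159 CPM at P15. The largest step of any member lay between E14 and E17, where the log2 fold change of Grin2b was 2.79 (SE 0.15, limma adjusted p = 3.09e-15) and no libraries overlapped. At P28 the level was 130, 129, 139 and 126 CPM, below every P15 library, and at P60 it was 104 CPM at the lowest, 114 CPM at the median and 127 CPM at the highest. The step from P15 to P28 had a log2 fold change of -0.28 (SE 0.13) and missed the threshold (limma adjusted p = 0.311), but passed it when only the libraries of these 2 ages entered the fit (adjusted p = 0.0102). Mature against embryonic retina differed by 2.94 on the log2 scale (SE 0.089, limma adjusted p = 7.46e-24).

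Grin2a, which encodes the GluN2 subunit that in forebrain appears after birth, stayed low to P1 and then rose in 2 steps. Its level was 4.90, 5.49 and 3.58 CPM at E14, 5.21, 5.21 and 6.73 CPM at E17, and 9.20, 2.77, 6.78 and 6.74 CPM at P1. These 3 ages overlapped, and P1 replicate 2, the lowest of all libraries for Grin2a with 22 reads, was also the lowest of P1 for Grin2b. Grin2a then stood at 22.9, 22.4 and 22.1 CPM at P6, at 58.1, 59.5, 67.8 and 55.8 CPM at P15 and at 56.9, 65.3, 60.1 and 55.6 CPM at P28. At P60 it ran from 35.6 CPM at the lowest through 51.9 CPM at the median to 64.6 CPM at the highest. The log2 fold change was 1.76 from P1 to P6 (SE 0.21, limma adjusted p = 2.84e-08) and 1.38 from P6 to P15 (SE 0.21, limma adjusted p = 3.58e-06), with no overlap at either step. Mature against embryonic retina differed by 3.23 (SE 0.13, limma adjusted p = 3.55e-20).

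**Figure D1:**
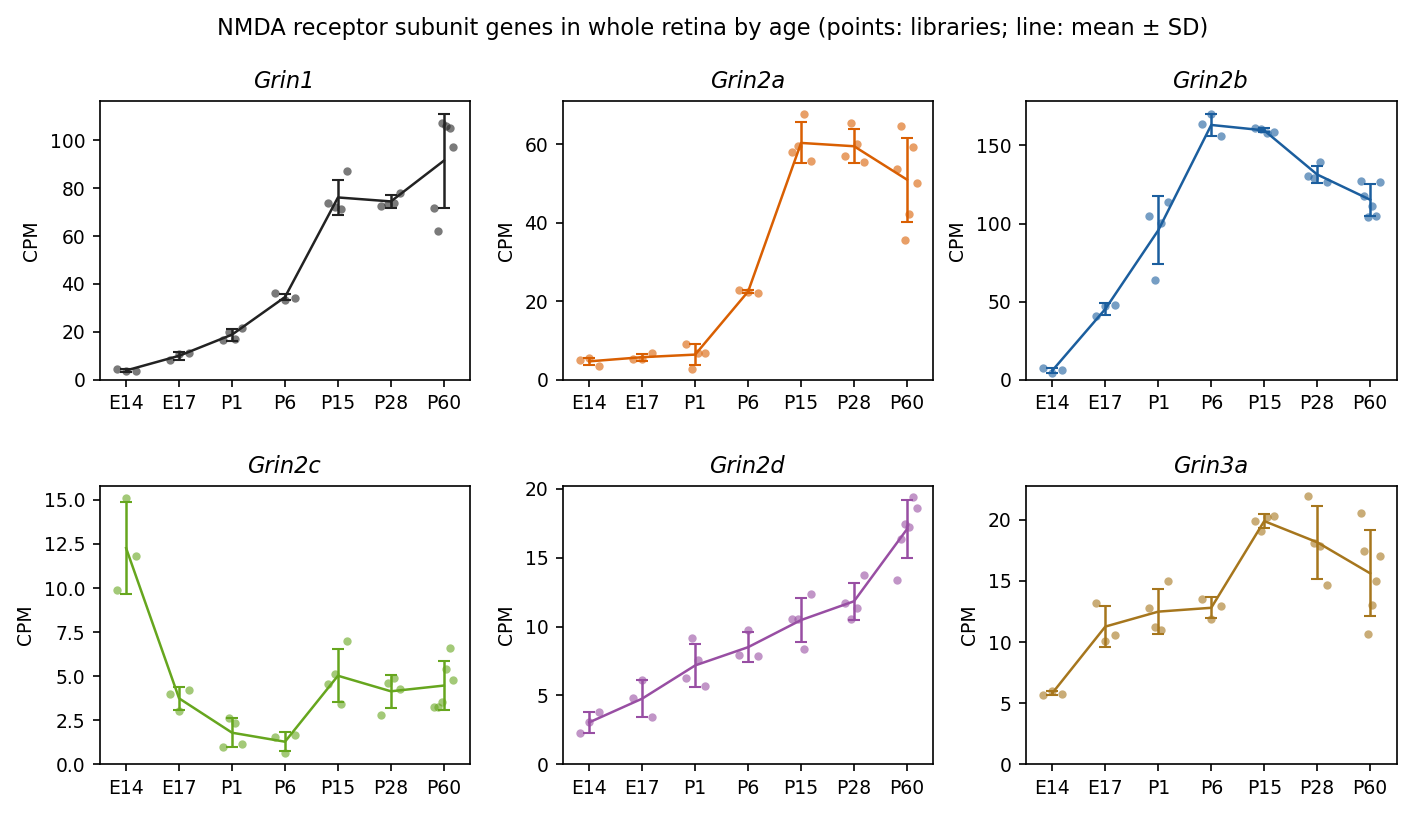
Level of each NMDA receptor subunit gene (y axis, CPM, starting at 0 with its own scale in each panel) at the 7 ages (x axis). Points are libraries and lines join means with SD bars; Grin2b had its highest mean, 163 CPM, at P6 and Grin2a its highest mean, 60.3 CPM, at P15, while Grin2c was highest at E14.

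The balance of Grin2a and Grin2b was therefore followed within each library as the difference of their log2(CPM + 1) values, which library scaling hardly touches. This log2 ratio averaged -0.26 ± 0.55 at E14 (SD, n = 3), -2.79 ± 0.15 at E17 (SD, n = 3) and -3.77 ± 0.31 at P1 (SD, n = 4). It then climbed to -2.81 ± 0.057 at P6 (SD, n = 3), -1.39 ± 0.13 at P15 (SD, n = 4) and -1.13 ± 0.10 at P28 (SD, n = 4), and was -1.18 ± 0.29 at P60 (SD, n = 6). The course was a trough and not a single rise. In reads, Grin2b gave 1.32 ± 0.52 reads for each read of Grin2a at E14 (SD, n = 3), 16.5 ± 4.91 at P1 (SD, n = 4) and 2.34 ± 0.46 at P60 (SD, n = 6). These reads are not corrected for the longer exons of Grin2b, and per kilobase of merged exons the E14 means were 0.260 ± 0.054 CPM for Grin2a and 0.235 ± 0.068 CPM for Grin2b (SD, n = 3), within their spread.

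The main test of the switch set the 14 mature against the 6 embryonic libraries. The log2 ratio of Grin2a to Grin2b was 0.29 higher in mature retina, less than the spread of the embryonic libraries (SD 1.43), and did not pass the two-sided exact permutation test (p = 0.426, adjusted p = 0.426 over 11 ratios). The E14 libraries (-0.66 to 0.37) lay above every mature library (-1.52 to -0.81) and the E17 libraries (-2.95 to -2.66) below every one. After these values were seen, the mature libraries were set against each embryonic age: they were 0.97 lower than E14 and 1.56 higher than E17 on the log2 scale, each with an exact permutation p of 0.00294, the smallest that 14 against 3 libraries allow. They were also set, after the values were seen, against the 4 libraries of P1, the age with the lowest ratio, and were 2.54 higher with no overlap (exact permutation p = 0.000654, the smallest possible). Because P1 and the embryonic ages were picked for their values, these 3 comparisons are descriptions of the trough.

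Steps between neighbouring ages were tested in the same way, with adjustment over the 6 steps. The ratio fell by 2.53 from E14 to E17 and by 0.98 from E17 to P1, then rose by 0.96 from P1 to P6 and by 1.41 from P6 to P15, with no overlap between libraries at any of these steps. With 3 libraries against 3 the exact permutation test cannot go below 0.1 and with 3 against 4 not below 0.0571, and these 4 steps all gave the smallest p possible. From P15 to P28 the ratio rose by 0.26 without overlap (exact permutation p = 0.0286, adjusted p = 0.0857). From P28 to P60 it differed by -0.052 and the libraries overlapped (exact permutation p = 0.705, adjusted p = 0.705). Without P60 replicates 1 and 2 that last difference was -0.12, and without replicates 3 to 6 it was 0.094, neither past the test. The difference between mature and embryonic retina was 0.26 and 0.30 without these sets, and did not pass in either case.

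**Figure D2:**
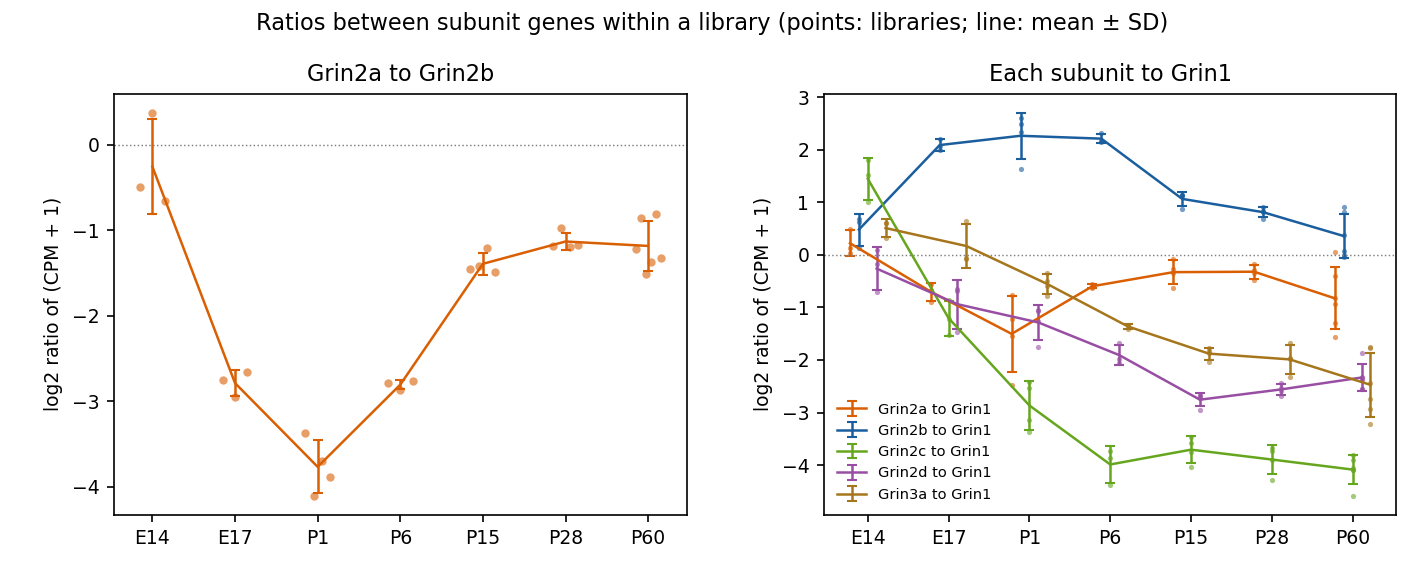
Log2 ratio of (CPM + 1) between subunit genes within a library (y axis) at the 7 ages (x axis), for Grin2a to Grin2b on the left and for each subunit to Grin1 on the right. Points are libraries, lines join means with SD bars and the dotted line marks equal values; the Grin2a to Grin2b ratio fell to -3.77 at P1 and stood at -1.18 at P60.

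Grin2c, which encodes the subunit best known from cerebellar granule cells, had the opposite course at the embryonic ages. It was at 9.90, 15.1 and 11.8 CPM at E14, 3.99, 3.00 and 4.25 CPM at E17, and 0.981, 2.65, 2.37 and 1.18 CPM at P1. At P6 it was lowest, at 1.55, 0.649 and 1.65 CPM, or 6 to 12 reads. It returned to 4.55, 5.14, 3.41 and 7.01 CPM at P15, was 2.80, 4.63, 4.87 and 4.27 CPM at P28, and ran from 3.24 CPM through a median of 4.15 CPM to 6.59 CPM at P60. Every E14 library lay above every later one, and the mature libraries overlapped those of E17. The log2 fold change was -1.47 from E14 to E17 (SE 0.27, limma adjusted p = 0.000191) and 1.40 from P6 to P15 (SE 0.25, limma adjusted p = 5.61e-05). The fall from E17 to P1, of -0.80 (SE 0.25, limma adjusted p = 0.0410), lost its call in 7 of 37 alternatives, 5 of which left out a single library (E17 replicate 1, 2 or 3, or P1 replicate 1 or 4), with adjusted p up to 0.174. Mature against embryonic retina differed by -0.53 (SE 0.16, limma adjusted p = 0.00405). These low levels make fold changes on the log2(CPM + 1) scale smaller than on the read scale.

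Grin2d, whose product forms slowly closing receptors, climbed little by little. It ran from 2.30 to 3.79 CPM at E14, from 3.42 to 6.09 CPM at E17, from 5.68 to 9.20 CPM at P1 and from 7.86 to 9.73 CPM at P6. It then ran from 8.40 to 12.4 CPM at P15, from 10.5 to 13.7 CPM at P28, and from 13.4 CPM through a median of 17.3 CPM to 19.4 CPM at P60. Each age overlapped the one before, yet the mature libraries lay above all embryonic ones, with a log2 fold change of 1.53 (SE 0.12, limma adjusted p = 1.84e-13). The only single step called was the last, from P28 to P60, at 0.49 (SE 0.15, limma adjusted p = 0.0337), where P60 replicate 1 at 13.4 CPM lay within the P28 range. That call was lost in 10 of 36 alternatives, 7 of which left out a single library (P28 replicate 1, 2 or 3, or P60 replicate 3, 4, 5 or 6), with adjusted p up to 0.594 where P60 replicates 3 to 6 were left out. Kdelr1, the overlapping gene, went from 16.3 ± 2.05 CPM at E14 (SD, n = 3) to 8.64 ± 1.38 CPM at P60 (SD, n = 6).

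Grin3a, whose product gives receptors with low calcium permeability, rose before birth and again after P6. It stood at 5.70, 6.01 and 5.79 CPM at E14 and at 13.2, 10.1 and 10.6 CPM at E17, with no overlap and a log2 fold change of 0.84 (SE 0.17, limma adjusted p = 0.000834). From E17 to P6 all libraries lay between 10.1 and 15.02 CPM. At P15 it reached 19.9, 19.1, 20.2 and 20.3 CPM, above every P6 library, with a log2 fold change of 0.60 (SE 0.16, limma adjusted p = 0.00436). At P28 it was 22.0, 18.1, 17.9 and 14.7 CPM, and at P60 it ran from 10.7 CPM through a median of 15.999 CPM to 20.6 CPM, so that the lowest P60 libraries lay within the embryonic range. Mature against embryonic retina differed by 1.03 (SE 0.10, limma adjusted p = 1.91e-10), with overlapping libraries. Grin3b, the gene of the other GluN3 subunit, was low at every age, with 2.21 ± 0.19 CPM at E14 (SD, n = 3) and 3.78 ± 1.85 CPM at P60 (SD, n = 6), and its log2 fold change of 0.27 (SE 0.15) did not pass the test (limma adjusted p = 0.0998). Over the 7 ages Grin3b was called by the F test (limma adjusted p = 0.000563). From P28, at 1.71 ± 0.24 CPM (SD, n = 4), to P60, with 2.36 to 7.28 CPM, it rose without overlap by 0.75 (SE 0.19, limma adjusted p = 0.0150).

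Counted over the members, 4 were called from E14 to E17 (Grin1, Grin2b and Grin3a higher, Grin2c lower; 10.6% of all features called, 7.56% higher and 3.02% lower) and 3 from E17 to P1 (Grin1 and Grin2b higher, Grin2c lower; 9.21% called, 5.77% higher and 3.43% lower). From P1 to P6 Grin1, Grin2a and Grin2b were higher (38.3% of all features called, 18% higher), and from P6 to P15 Grin1, Grin2a, Grin2c and Grin3a were higher (33.4% called, 14.4% higher). Grin1 rose by 1.18, 0.86, 0.85 and 1.12 on the log2 scale at these 4 steps, the only member called at each of them. From P15 to P28 limma called 0 of the 6 (2.72% of all features), with 1 of them, Grin2b, at an unadjusted p under 0.05, and edgeR's quasi-likelihood test also called 0. From P28 to P60 Grin2d alone was called, and higher (12.9% of all features called, 4.8% higher). At that last step the scaling moved the background, since 37.2% of the features called were higher by the deposited CPM, 51.6% after median-of-ratios scaling and 60.8% in edgeR, while Grin2d was called and higher in all 3. Without P60 replicates 1 and 2, 3 members were called at that step (35.8% of all features called), Grin1 at 0.47 (limma adjusted p = 0.000320) and Grin2d at 0.58 (limma adjusted p = 0.00466) higher and Grin3a at -0.37 (limma adjusted p = 0.0314) lower. Without replicates 3 to 6 limma called 0 of the 6 (0.477% of all features called), 0 also at an unadjusted p under 0.05, with Grin1 at -0.16, Grin2d at 0.30 and Grin3a at 0.072. Both sets were chosen after the data were seen, and Grin1 lay lower in replicates 1 and 2 than in 3 to 6. The calls made without them from P28 to P60 therefore describe the split and are not a separate test. All 6 members kept their call and direction between embryonic and mature retina without either set.

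**Figure D3:**
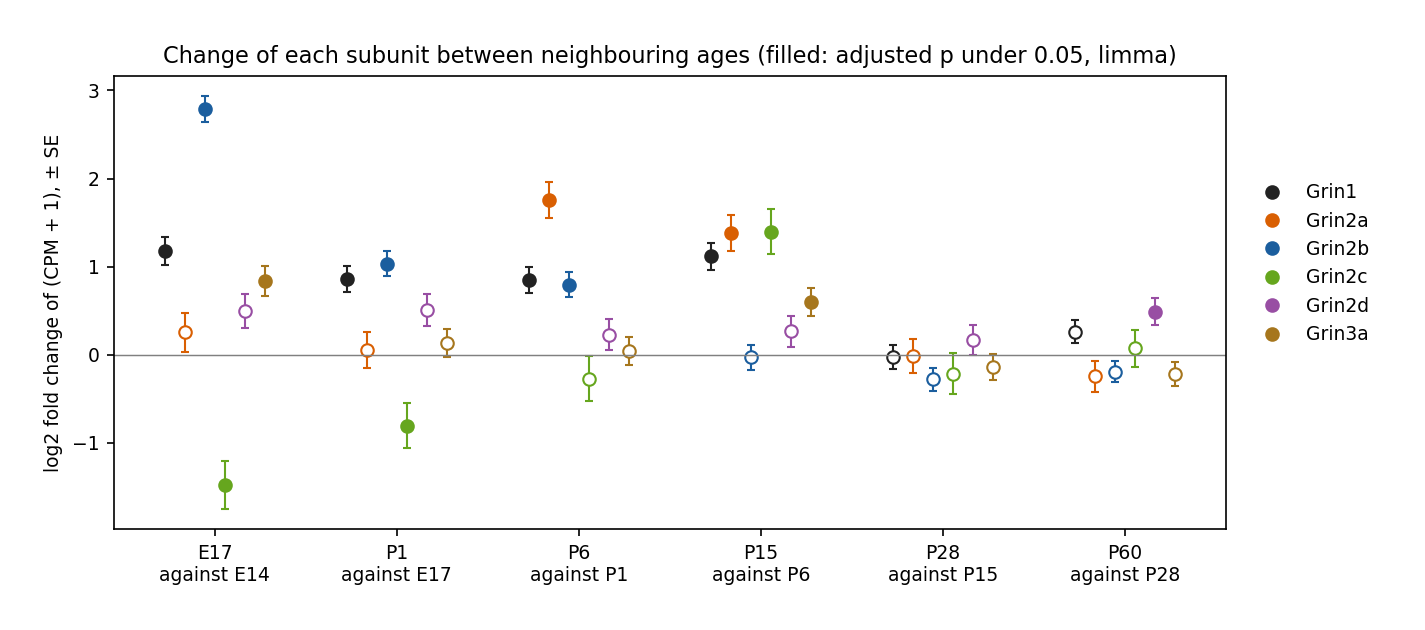
Log2 fold change of (CPM + 1) of each subunit gene (y axis) at the 6 steps between neighbouring ages (x axis). Points are limma estimates with SE bars and filled points have an adjusted p under 0.05; the largest is Grin2b from E14 to E17, at 2.79, and no point is filled from P15 to P28.

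Set against Grin1, the other subunits differed in their course. The log2 ratio to Grin1 differed between mature and embryonic retina by -4.04 for Grin2c, -2.50 for Grin3a and -1.92 for Grin2d, with no overlap (exact permutation p = 5.16e-05 for each, the smallest possible, adjusted p = 9.46e-05 over 11 ratios). For Grin2a and Grin2b it differed by -0.30 (exact permutation p = 0.219, adjusted p = 0.241) and -0.59 (exact permutation p = 0.0676, adjusted p = 0.0827), which did not pass. The Grin2b to Grin1 ratio rose and then fell, since it was 0.48 ± 0.31 at E14 (SD, n = 3), 2.09 ± 0.11 at E17 (SD, n = 3), 2.26 ± 0.44 at P1 (SD, n = 4) and 0.36 ± 0.42 at P60 (SD, n = 6). At P60 replicates 1 and 2 lay above the others in 3 of these ratios, at 0.82 and 0.91 for Grin2b (-0.043 to 0.38 in replicates 3 to 6), at -0.41 and 0.057 for Grin2a (-1.56 to -0.82) and at -1.75 and -1.77 for Grin3a (-3.21 to -2.44). Among the GluN2 genes, Grin2a gained 3.74 on Grin2c and 1.62 on Grin2d without overlap (exact permutation p = 5.16e-05, adjusted p = 9.46e-05 for each). Grin2b gained 3.45 on Grin2c without overlap (the same p) and 1.32 on Grin2d with overlap (exact permutation p = 0.0111, adjusted p = 0.0153). Grin2c changed by -2.12 against Grin2d (exact permutation p = 0.000103, adjusted p = 0.000162). Of the 11 ratios, 8 passed. The test moved single libraries between mature and embryonic retina, although libraries of an age lay close together. Grin2c to Grin1, for one, was 1.45 ± 0.40 at E14 and -1.21 ± 0.33 at E17 (SD, n = 3 each). These p-values therefore do not measure the spread between ages.

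Per kilobase of merged exons, the 4 GluN2 genes could be compared with each other as shares of their summed level. Grin2c held the largest share at E14, 71.4% ± 4.3 (SD, n = 3), with 13.6% ± 2.9 for Grin2d, 7.75% ± 1.78 for Grin2a and 7.26% ± 3.05 for Grin2b. Grin2b then held the largest share at each later age, from 50.5% ± 2.5 at E17 (SD, n = 3) to 70.2% ± 0.56 at P6 (SD, n = 3) and 42.6% ± 3.8 at P60 (SD, n = 6). The share of Grin2a rose from 6.15% ± 2.22 at P1 (SD, n = 4) to 27.2% ± 2.9 at P15 (SD, n = 4) and was 25.8% ± 4.0 at P60 (SD, n = 6), where Grin2d held 23.5% ± 3.1 and Grin2c 8.09% ± 2.22. Which Grin2 transcripts the retina uses is not known from these values, and with coding length in place of exonic length 22 of the 28 shares moved by more than the SD between libraries. Grin2c then held 50.9% at E14 and Grin2b 84.7% at P1 and 60.3% at P60, while the share of Grin2d at P60 was 10.1%. The order of Grin2c first at E14 and Grin2b first from E17 on was the same with both lengths.

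**Figure D4:**
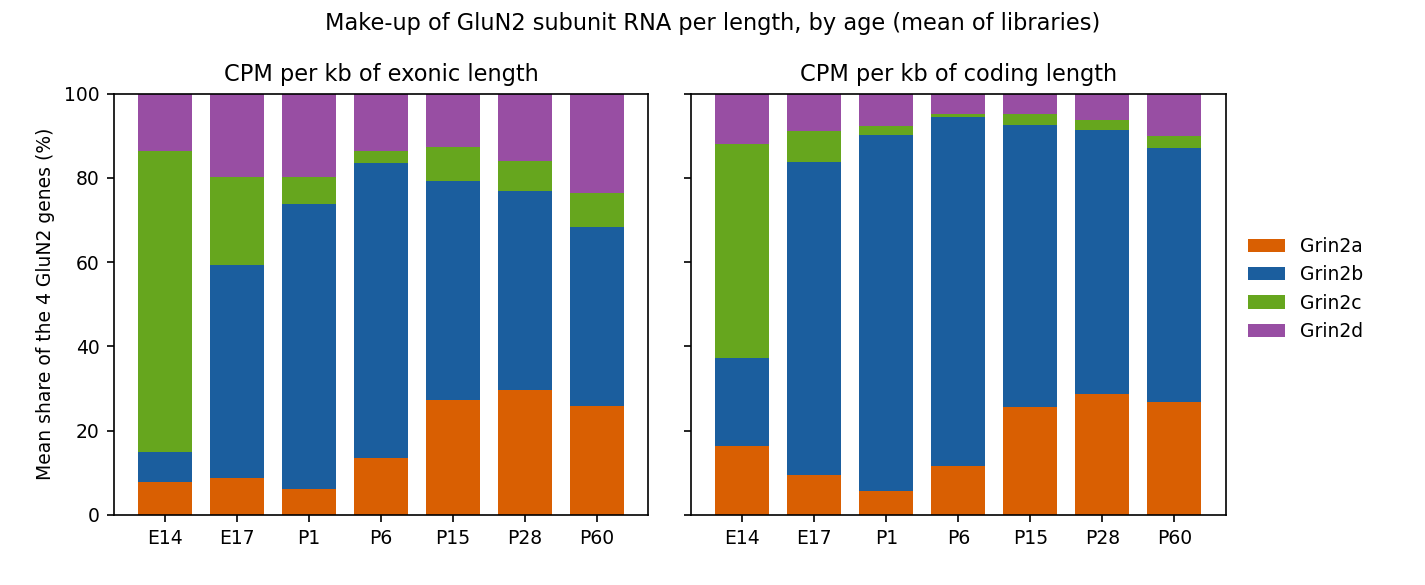
Mean share of each GluN2 gene in the summed level per kilobase of the 4 genes (y axis, %) at the 7 ages (x axis), with levels divided by exonic length on the left and by coding length on the right. Grin2c holds the largest share at E14, 71.4% by exonic and 50.9% by coding length, and Grin2b at every later age.

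Ages next to each other in the order of mean level were compared by the ranges of their libraries. For Grin1 the ages from E14 to P6 and the group of P28, P15 and P60 were separate, with overlap among the last 3. For Grin2a E14, E17 and P1 overlapped at the low end and P60, P28 and P15 at the high end, with P6 between them and apart from both. For Grin2b the order was E14, E17, P1, P60, P28, P15 and P6, in which P1 overlapped P60, P60 overlapped P28 and P15 overlapped P6. For Grin2c P6 overlapped P1, both lay below E17, E17 overlapped P28, P60 and P15 in turn, and E14 stood apart at the top. Every neighbouring pair of Grin2d overlapped, and for Grin3a only E14 stood apart from its neighbour.

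Promoter sequences were at hand for 3 of the 6 genes, Grin1 and Grin2d, which rose together (Pearson r of 0.93 over the 27 libraries, a description), and Grin2c, which was highest at E14. They are RefSeq's windows of 250 bases before to 50 bases after the gene's start in the RefSeq table on GRCm38.p6, minus strand. For Grin2d this start lies inside the GENCODE span given above, so that its window does not describe the GENCODE start of that gene. Capitals mark the GC box, searched as GGGCGG on both strands, the motif to which Sp1 and related factors bind.
Grin1, chr2:25319138-25319437: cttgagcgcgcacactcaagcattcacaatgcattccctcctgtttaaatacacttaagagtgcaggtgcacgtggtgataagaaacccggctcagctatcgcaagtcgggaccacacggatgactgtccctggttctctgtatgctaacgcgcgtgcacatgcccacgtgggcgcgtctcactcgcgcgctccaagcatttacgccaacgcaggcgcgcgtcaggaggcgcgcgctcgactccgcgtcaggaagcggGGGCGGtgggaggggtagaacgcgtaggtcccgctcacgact
Grin2c, chr11:115267194-115267493: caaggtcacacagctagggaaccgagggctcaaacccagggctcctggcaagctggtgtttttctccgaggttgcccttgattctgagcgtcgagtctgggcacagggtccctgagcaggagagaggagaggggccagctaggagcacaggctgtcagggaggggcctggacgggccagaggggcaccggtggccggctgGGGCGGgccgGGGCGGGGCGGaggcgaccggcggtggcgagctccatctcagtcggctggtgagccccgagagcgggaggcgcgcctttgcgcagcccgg
Grin2d, chr7:45866632-45866931: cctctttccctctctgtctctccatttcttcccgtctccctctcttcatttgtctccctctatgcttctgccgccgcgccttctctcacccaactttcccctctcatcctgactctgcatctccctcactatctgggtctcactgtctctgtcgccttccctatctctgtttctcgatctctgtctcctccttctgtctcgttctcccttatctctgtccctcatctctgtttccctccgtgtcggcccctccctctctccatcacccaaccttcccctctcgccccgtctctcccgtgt
The Grin1 window holds 1 GC box, that of Grin2c holds 3, of which a pair overlaps, and that of Grin2d holds none, beside 35.7% of 32851 promoter windows with at least 1. The TATA box, searched as TATAAA on both strands, is in none of the 3 and in 13.6% of all windows. The G and C content is 60.7% in Grin1, 70% in Grin2c and 56% in Grin2d.

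Other genes followed each member closely over the 27 libraries, among 11935 candidates with a Gene ID and a mean of at least 5 CPM. By Pearson r of log2(CPM + 1), the most like Grin1 after Grin1os were Cygb and Ank1 (both 0.99), and the most like Grin2b were Inpp4b, Adcy2 and Ralyl (0.99 each). The most like Grin2a were Tnr, Fgf2os and Herc3 (0.98 each), and among the most like Grin2d were Ppp1r12b (0.96) and Slc38a3 (0.95). The most like Grin3a were Lsamp (0.96), Caln1 and Rab3c (0.95 each). Grin2c had no match as close, with Ank2 (0.87), Syt13 (0.86) and Ccnd3 (0.85) at the top. The points share their ages, so a high r says only that the mean levels followed a like course. Among the members themselves r ran from -0.65 for Grin2b with Grin2c to 0.93 for Grin1 with Grin2d, and Grin2a with Grin2b had 0.69.

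The proteins that anchor, move and act with the receptor were followed as a list of 37 genes, of which 36 were tested and Lin7b was not. Between embryonic and mature retina 20 of them rose, 10 fell and 6 did not pass (75.4% of all features called, 35% higher and 40.4% lower). The median log2 fold change was 0.54, beside -0.065 over all features. Of the 4 MAGUK scaffolds, which bind the tails of GluN2 subunits, 3 rose and 1 fell. Dlg4, the gene of PSD-95, went from 46.3 ± 1.2 CPM at E14 (SD, n = 3) to 499 ± 123 CPM at P60 (SD, n = 6), with 326 to 656 CPM among the P60 libraries, and its log2 fold change was 2.94 (SE 0.089, limma adjusted p = 7.60e-24). Dlg2, the gene of PSD-93, rose by 2.28 (SE 0.054, limma adjusted p = 8.99e-27), from 35.8 ± 3.3 CPM at E14 (SD, n = 3) to its highest mean of 486 ± 33 CPM at P15 (SD, n = 4).

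Of 9 other genes of the postsynaptic density, 4 rose, 2 fell and 3 did not pass (75.4% of all features called, 35% higher and 40.4% lower). The largest changes were those of the scaffold genes Dlgap1, at 2.71 (SE 0.056, limma adjusted p = 3.07e-28), and Dlgap2, at 1.88 (SE 0.095, limma adjusted p = 6.03e-18). Of 10 kinase and signalling genes 7 rose, 2 fell and 1 did not pass, beside the same shares of all features. Rasgrf1 and Rasgrf2 encode exchange factors that carry calcium signals to Ras and related GTPases. Rasgrf1 was at 0 to 3 reads in each embryonic library, at 1.52 ± 0.28 CPM at P1 (SD, n = 4) and at 68.7 ± 5.8 CPM at P60 (SD, n = 6), so no fold change is given for it. Rasgrf2 rose by 4.41 (SE 0.057, limma adjusted p = 8.39e-34), with 2.79 ± 0.43 CPM at E14 (SD, n = 3) and 178 ± 11 CPM at P60 (SD, n = 6).

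Of 5 genes that govern the co-agonists, 3 rose, 1 fell and 1 did not pass. Here and for the transport genes below, 75.4% of all features were called, 35% higher and 40.4% lower. Slc6a9, the gene of the glycine transporter GlyT1, went from 8.07 ± 0.91 CPM at E14 (SD, n = 3) to 160 ± 26 CPM at P60 (SD, n = 6), with a log2 fold change of 3.62 (SE 0.081, limma adjusted p = 1.93e-27). Slc1a4, a transporter of neutral amino acids including serine, fell by 1.74 (SE 0.12, limma adjusted p = 1.14e-14), from 21.6 ± 1.8 CPM at E14 (SD, n = 3) to 8.44 ± 2.02 CPM at P60 (SD, n = 6). Of 5 transport genes tested 3 rose and 2 fell, led by Apba1, an adaptor in the transport of NMDA receptors, which rose by 1.501 (SE 0.059, limma adjusted p = 7.79e-21). Ephb2, the gene of an ephrin receptor that binds NMDA receptors at the cell surface, fell by 3.13 (SE 0.086, limma adjusted p = 5.11e-25), from 381 ± 12 CPM at E14 (SD, n = 3) to 43.4 ± 10.7 CPM at P60 (SD, n = 6). Rest, the gene of a repressor of neuronal genes, fell by 1.498 (SE 0.060, limma adjusted p = 1.38e-20), from 107 ± 5 CPM at E14 (SD, n = 3) to 34.4 ± 2.6 CPM at P60 (SD, n = 6).

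**Figure D5:**
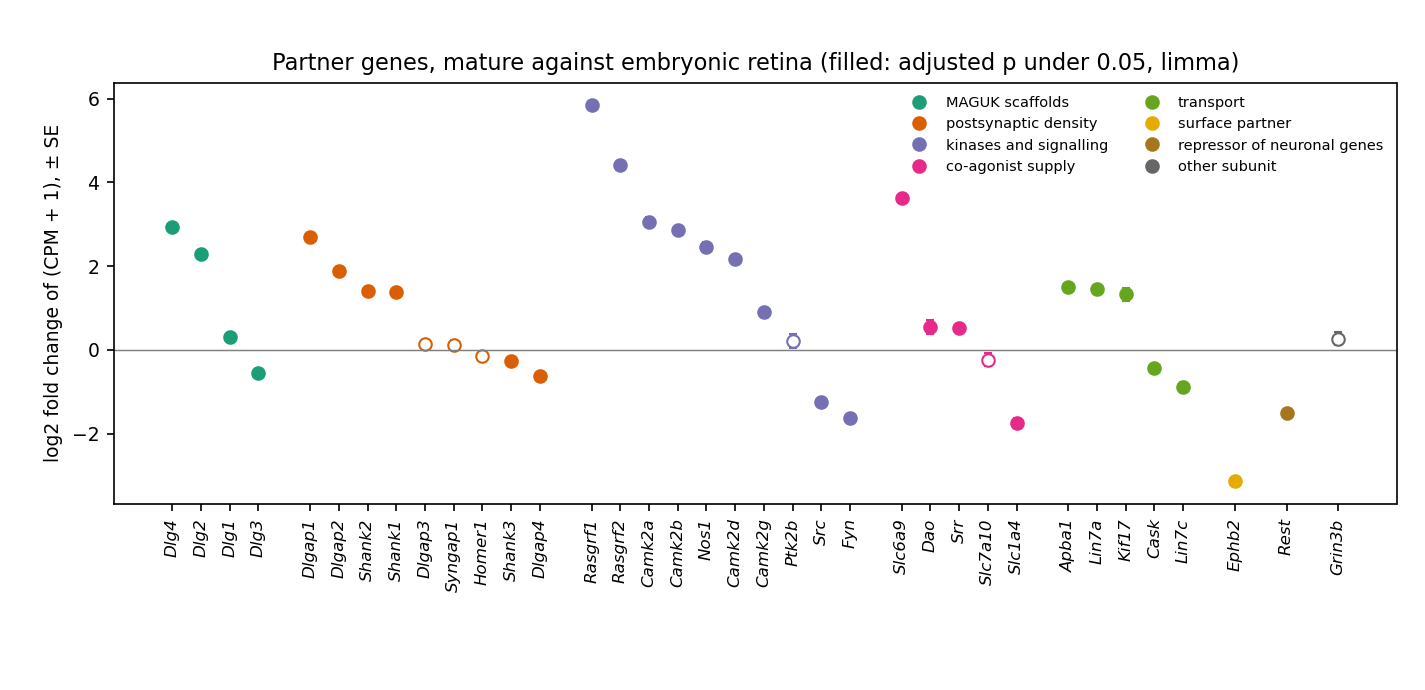
Log2 fold change of (CPM + 1), mature against embryonic retina (y axis), of the 36 partner genes tested (x axis), grouped and coloured by role. Points are limma estimates with SE bars, many smaller than the points, and filled points have an adjusted p under 0.05; 20 genes are higher and 10 lower, and Rasgrf1 had at most 3 reads in each embryonic library, so that its height depends on the value added before the logarithm.

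By step, the partner list had 10 of 36 genes called from E14 to E17, all higher (10.6% of all features called, 7.56% higher). From E17 to P1 it had 11, of which 10 were higher and 1 lower (9.21% called, 5.77% higher and 3.43% lower). From P1 to P6 it had 23, of which 16 were higher and 7 lower (38.3% called, 18% higher). Between P6 and P15 it had 21, of which 14 were higher and 7 lower, beside 33.4% of all features called and 14.4% higher. The next step, to P28, had 2, both lower, beside 2.72% of all features called. The step to P60 had 9, of which 6 were higher and 3 lower, beside 12.9% called and 4.8% higher. The share of all features called at that last step was 35.8% without P60 replicates 1 and 2 and 0.477% without replicates 3 to 6. Partner genes were not counted at that step without these sets. The steps with the most calls among the partners, P1 to P6 and P6 to P15, were also those with the most calls among all features.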

How the data were processed

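RNA was measured in 27 libraries of whole C57BL/6J retina, built by the authors from total RNA with the SMARTer kit and sequenced on a HiSeq instrument as single-end reads of 50 bases. The authors aligned the reads with STAR to GRCm38 (mm10) and deposited CPM values, reads scaled to the library total, in a table of 38168 features. The annotation, the strand setting and the treatment of multiply aligned reads are not given in the sources used here. All values were whole multiples of 1 read within a tolerance of 0.01 reads (100% of values), so read counts could be recovered from the deposited CPM. The floor of 3 reads covers counting error only, whereas the SD and SE values hold the spread between libraries.

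A minimum of 1 CPM in 3 or more libraries left 31760 features, which were tested on log2(CPM + 1) with limma 3.58.1 in R 4.3.3, using a mean-variance trend, age as the factor and all 27 libraries. The tests had 2 sides, and p-values were adjusted after Benjamini and Hochberg over the whole table. The 1 added to CPM shrinks the fold change of genes with low levels. Ratios used exact permutation tests over libraries (scipy 1.17.1 conventions, numpy 2.4.6 and pandas 2.3.3 in Python 3.11.15), and figures used matplotlib 3.10.9. Alternatives were a pseudocount of 0.1, no filter or a mean of at least 10 CPM, scaling by median-of-ratios factors, a block for the replicate number, edgeR 4.0.16 on recovered counts (rerun without E14 replicate 1, whose step lies close to a round decimal, an alternative added after the data were seen), only the ages compared, no P60, each library left out and, added after the data were seen, P60 without replicates 1 and 2 or without replicates 3 to 6. On simulated data with 200 changed features (log2 fold change 1.5), limma recovered 200 with 5 false calls for mature against embryonic retina, and 191 with 11 false calls for P6 against P1. The simulated features all shared a single dispersion, and far more features were called in the real comparisons. These counts therefore check the code and do not give the error rate in the data.

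Ages came from the labels. The labels give 3 retinas per library and do not say whether libraries of an age came from separate animals. The study's methods describe pools, and at P60 both pools and single mice. The p-values therefore measure the spread between these libraries, which may be partly technical, and not that between single animals. Replicate numbers did not pair libraries: the deviations of same-numbered libraries from their age means had Pearson r of -0.13 to 0.17 over 69 pairs, 3 of them over 0.1. No pair of libraries was a copy (chi-square of recovered reads per degree of freedom of 1.72 or more). The members, the partner list and the marker lists were chosen with earlier results of these data known. Named were the 6 members, up to 12 partner genes with the largest change within their role, and the 3 genes with the highest r to each member, leaving out symbols made of Gm and a number or ending in Rik. A gene from these lists is not reported here. Gene spans and lengths were taken from GENCODE for GRCm38, and promoter windows from RefSeq (3 of 6 members matched).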

Additional observations from a re-analysis of the deposited data

Results flagged for a closer look

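In groups of 4 to 10 libraries, 28 sets of values (each member and the Grin2a to Grin2b ratio, at P1, P15, P28 and P60) were searched for a single library far from the others by Dixon's test, which by chance marks about 1 set in 20. Grin1 at P15 had replicate 4 at 87.0 CPM, with the nearest library at 73.7 CPM. The Grin2a to Grin2b log2 ratio at P28 had replicate 2 at -0.98, with the nearest library at -1.17. No other set passed the limit.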

How the results depend on the processing

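All 6 members kept their direction and their call between embryonic and mature retina and over the 7 ages under every alternative that tested them, and limma's counts of called members at each step up to P15 stayed within 1.5 times. For the partner genes, 30 or 31 were called with any library left out, and 34 without P60 replicates 1 and 2. From P15 to P28 the count of members was 1 when only the ages compared entered the fit. From P28 to P60 it was 0 with a mean of at least 10 CPM (which leaves 4 members tested), 0 with the replicate block and 0 with only the ages compared, and it ran from 0 to 2 with 1 library left out. It was 2 without P60 replicate 2, where Grin1 was also called (log2 fold change 0.37, adjusted p = 0.0166 in limma). Without P60 replicates 1 and 2, which stood apart from the other P60 libraries, it was 3, and without P60 replicates 3 to 6 it was 0. The latter turned Grin1 (-0.16), Grin2c (-0.25), Grin3a (0.072) and the Grin2a to Grin2b ratio (0.094) at that step, none of them called. These sets were chosen after the data were seen. With the replicate block Grin2d from P28 to P60 was 0.41 (adjusted p = 0.130) and Grin2c was -0.084. The block changed no other call. The pairing of libraries by number had no basis in the labels or the deviations. Median-of-ratios scaling and edgeR both put Grin2b from P6 to P15 at 0.040 and 0.036 (0.036 without E14 replicate 1), in place of -0.030, and neither called it. Their median log2 fold change over all features for mature against embryonic retina was -0.0030 and 0.038, beside -0.065 by CPM.

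The Grin2a to Grin2b difference between mature and embryonic retina was -0.97 with E14 alone and 1.56 with E17 alone as embryonic. With 1 library left out it ran from 0.0079 to 0.67, the P28 to P60 step of that ratio ran from -0.13 to 0.015, and 7 to 9 of the other ratios passed. Leaving out 1 library also turned the direction of uncalled steps: Grin1 from P15 to P28 (-0.056 to 0.038), Grin2a from E17 to P1 (-0.13 to 0.35) and from P15 to P28 (-0.064 to 0.038), Grin2b from P6 to P15 (-0.062 to 0.00053), Grin2c from P28 to P60 (-0.067 to 0.14) and Grin3a from P1 to P6 (-0.013 to 0.13). Grin2d, not called from E14 to E17 or from E17 to P1, was called without E17 replicate 3 at the first step and without E17 replicate 2, P1 replicate 4, all of P60 or either set of P60 libraries at the second (adjusted p = 0.0340 to 0.0486). The cause of these changes was not tested. Depth limits Grin2c most, with 6 to 21 reads per library at P1 and P6.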
